A study of Mus musculus with 31 samples.

Results

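The difference in gene expression between the nucleus accumbens (NAc) and the medial prefrontal cortex (mPFC) of adult female DBA2/J (DBA) control mice was measured on 8 of the 31 arrays of the study. The members were chosen by sample title as DBA NAc control 1 to 4 and DBA mPFC control 1 to 4. The control litters of this inbred, non-transgenic strain were picked up every day from postnatal day 1 to day 4, put back in their home cage, and had their mother back within 30 s. The mice were weaned on day 28 and were 12 weeks old, with tissue from 1 mouse named per sample. An age range of 9 to 12 weeks and at most 2 mice per litter are also given for the study. Which samples shared a litter is not stated, so samples of a group may be littermates. The rest of the study covers C57BL/6J mice and litters moved daily to another dam (repeated cross-fostering, RCF), which are used here only for comparison. The mPFC arrays 2 and 4 were nearly identical and were averaged, so the comparison rests on 4 NAc and 3 mPFC samples.

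The NAc is the ventral part of the striatum, and most of its neurons are GABAergic projection neurons that carry either the D1 or the D2 dopamine receptor and make the opioid and tachykinin peptides. The mPFC is a layered cortex in which most neurons are glutamatergic pyramidal cells that load vesicles through the transporter Slc17a7 and are specified by transcription factors such as Tbr1 and Fezf2. The comparison therefore sets striatal against cortical tissue within one strain and one rearing condition.

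Promoters of 5 of the genes on which the difference turned are shown to give the sequence beside the values reported for these genes below. Each is the 250 bases before a RefSeq transcription start on GRCm38.p6, 5′ to 3′ on the gene's strand, and was read from RefSeq promoter sequences. Nts (neurotensin) lies at chr10:102490419-102490668 on the minus strand and Drd1 (D1 dopamine receptor) at chr13:54055659-54055908 on the minus strand. Cck (cholecystokinin) lies at chr9:121495695-121495944 on the minus strand, Tbr1 (a cortical T-box factor) at chr2:61804203-61804452 on the plus strand and Slc17a7 at chr7:45163671-45163920 on the plus strand. Capitals mark matches, on either strand, to TGAGTCA (AP-1), TGCGTCA (a variant of the cAMP response element), CAGATG (an E-box) or TAATTA (a homeodomain core). None of the matches shown overlapped another.
Nts: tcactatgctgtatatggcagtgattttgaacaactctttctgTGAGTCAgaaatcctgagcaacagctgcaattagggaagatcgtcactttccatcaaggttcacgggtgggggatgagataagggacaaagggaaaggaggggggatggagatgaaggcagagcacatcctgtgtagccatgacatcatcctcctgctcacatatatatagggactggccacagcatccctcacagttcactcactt
Drd1: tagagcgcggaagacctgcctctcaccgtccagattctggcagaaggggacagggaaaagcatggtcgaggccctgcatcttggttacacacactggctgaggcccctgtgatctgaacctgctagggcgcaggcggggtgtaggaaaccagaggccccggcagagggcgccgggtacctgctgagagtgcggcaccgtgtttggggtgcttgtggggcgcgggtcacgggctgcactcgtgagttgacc
Cck: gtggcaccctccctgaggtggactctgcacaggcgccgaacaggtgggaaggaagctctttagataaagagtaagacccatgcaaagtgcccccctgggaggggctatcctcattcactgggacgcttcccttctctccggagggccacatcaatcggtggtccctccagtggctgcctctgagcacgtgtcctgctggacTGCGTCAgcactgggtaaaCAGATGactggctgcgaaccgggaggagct
Tbr1: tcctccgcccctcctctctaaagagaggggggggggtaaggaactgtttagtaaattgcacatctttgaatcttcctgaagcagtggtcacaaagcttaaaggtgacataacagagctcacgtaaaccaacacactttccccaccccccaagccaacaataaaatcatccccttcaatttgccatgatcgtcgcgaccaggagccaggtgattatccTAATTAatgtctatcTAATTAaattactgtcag
Slc17a7: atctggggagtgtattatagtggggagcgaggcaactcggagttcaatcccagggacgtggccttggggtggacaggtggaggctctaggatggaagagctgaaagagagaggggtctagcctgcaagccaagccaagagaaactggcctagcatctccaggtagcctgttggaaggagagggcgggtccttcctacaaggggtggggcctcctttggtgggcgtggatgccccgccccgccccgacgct
TGAGTCA stood in 4.47% of the 27025 promoters of the same length, TGCGTCA in 1.75%, CAGATG in 14.6% and TAATTA in 4.98%. Nts held TGAGTCA 207 bases before its start, Cck held TGCGTCA at 49 and CAGATG at 30 bases before its start, and Tbr1 held TAATTA at 33 and at 18 bases before its start. A match describes letters only, and these letters were not in the windows of Drd1 (of its 2 RefSeq starts, the upstream one is shown) and Slc17a7. The motifs were picked after the sequences had been read.

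Each array was taken as the sample that the deposited expression table names, because 29 of the 31 scanner files were listed under another sample than the table column they equalled. Between 69.3% and 72.0% of the probes were well above background on the NAc arrays and between 74.7% and 81.9% on the mPFC arrays. All NAc arrays lay on 1 slide and all mPFC arrays on another, so slide and region cannot be told apart in any result given here. 2 samples went against their labels. Gpnmb, which carries a truncating mutation in DBA/2J mice, read −4.46 in NAc 4 and −3.25 in mPFC 1 and was between −8.63 and −8.11, not well above background, in the other samples. Glo1, which is duplicated in DBA/2J, read 3.13 in NAc 4 and 3.09 in mPFC 1 against 4.08 to 4.63 elsewhere. The X-inactivation transcript Xist read −5.87 in mPFC 1 and 0.11 to 1.44 elsewhere, and the Y-linked genes Ddx3y (1.21) and Eif2s3y (1.92) were high in mPFC 1 only. Counts over all features and over the gene lists, and the main genes, are therefore given with all samples and also without mPFC 1 and NAc 4, for most lists and several genes in a paragraph of their own. Values are log2 signal minus the 75th percentile of the array, and a difference is the NAc mean minus the mPFC mean, followed by its standard error in the limma model.

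Of 29469 genes and other transcripts tested, 11945 (40.5%) differed between the regions at a limma adjusted p under 0.05, of which 3436 (11.7% of those tested) were higher and 8509 (28.9%) lower in the NAc. Without mPFC 1 and NAc 4, 13191 differed (44.8%), 4307 higher (14.6%) and 8884 lower (30.1%). Of the 11945, 10662 passed both ways in the same direction and 0 had the opposite sign without the 2 samples. With each scanner file given the sample it is listed under, in place of the sample of the table column it equals, 0 features were called. The values of the groups did not overlap in 13576 features (46.1%). Differences of 1 or more were found in 1135 features that were higher and 4965 that were lower in the NAc, and differences of 4 or more in 49 and 60. The split by direction depended on the scaling: 28.8% of the calls were higher in the NAc with the 75th percentile, 42.2% with quantile normalization, 40.6% with another background correction, 39.2% with the probes of the authors' table and 57.8% with the array median. The median difference of all features was −0.12 with the 75th percentile and 0.17 with the array median. Beside every count of genes below with all samples, 11.7% higher and 28.9% lower is the background. Beside counts without the 2 samples it is 14.6% and 30.1%. Beside counts with the array median it is 8041 higher and 5866 lower of the 29469 features. In bulk tissue, fewer cells of a type and less RNA per cell cannot be told apart.

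**Figure D1:**
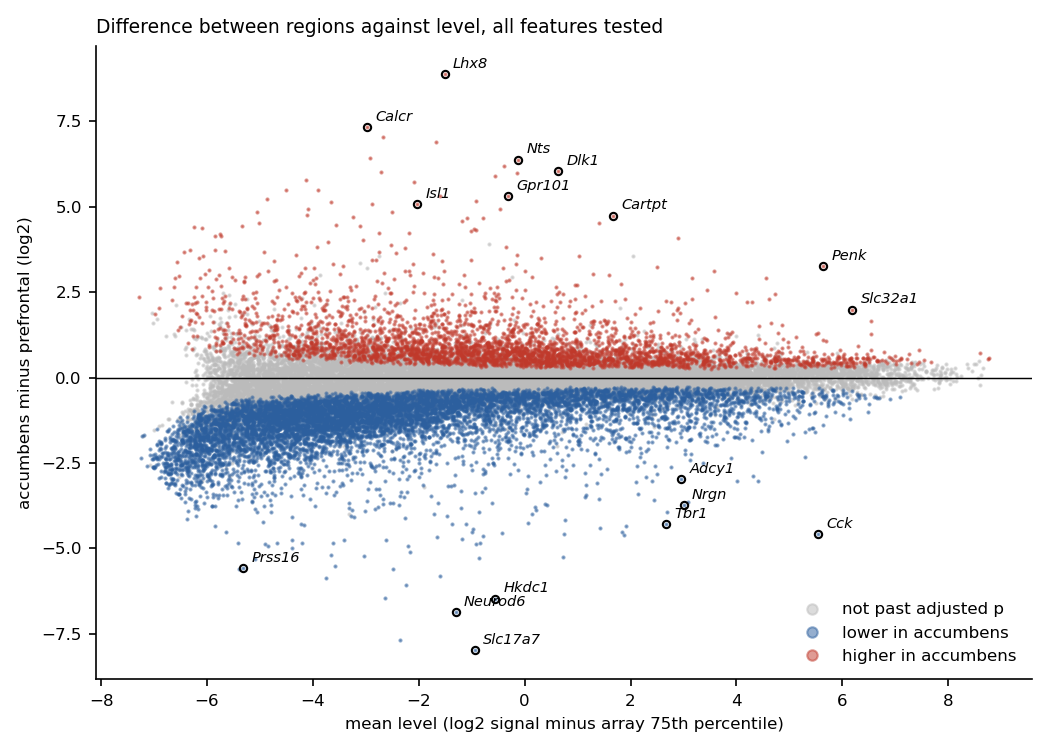
Difference between regions (NAc minus mPFC, log2) on the vertical axis against the mean level of the 2 regions (log2 signal minus array 75th percentile) for 29469 features. Red points were higher and blue points lower in the NAc at adjusted p under 0.05, grey points did not pass, and blue points are most frequent among dim features.

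The excess of lower calls lay among dim probes. In the dimmest of 5 equal groups of features 48.1% were lower and 5.94% higher in the NAc, with a median difference of −0.87. In the brightest group 15.2% were lower and 11.8% higher, with a median of 0.02. The 96 ERCC control probes for added RNA standards, which are no mouse genes, had a median difference of −0.41. Of these, 62 were lower on the NAc arrays. The 11 that were well above background on all 8 arrays were all lower there, with a median of −0.94. Another set of added standards, 10 E1A probes, overlapped between the regions. Their medians were 1.02, 0.71, 1.09 and 2.64 on NAc 1 to 4 and 0.10, 2.20, 2.00 and 2.12 on mPFC 1 to 4. The part of the shift of the ERCC probes in the calls among dim genes was not tested.

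**Figure D2:**
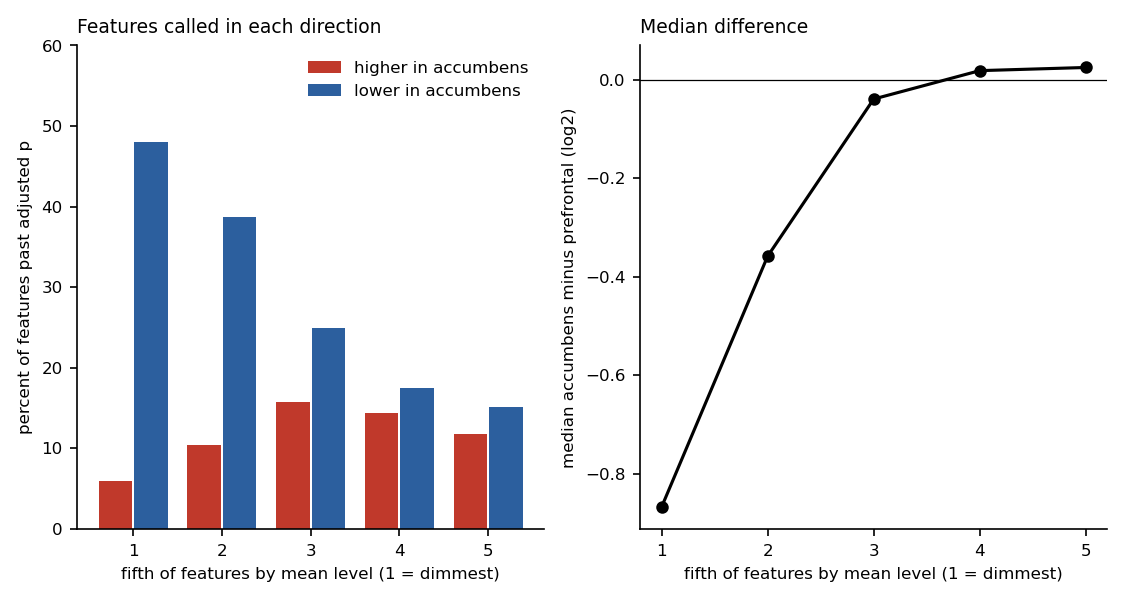
Left, the percent of features called higher (red bars) or lower (blue bars) in the NAc in 5 equal groups of features by mean level, from the dimmest (1) to the brightest (5). Right, the median difference in each group, which rose from −0.87 to 0.02.

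Genes of the D1 and D2 projection neurons were higher in the NAc. Of the 8 D1 genes tested, 5 were called higher and 0 lower, with a median difference of 2.57, and of the 7 D2 genes 4 were higher and 0 lower, with a median of 1.45. Drd1 read 0.30, 2.10, 2.80 and 2.50 in NAc 1 to 4 and 0.39, −1.12 and −1.47 in mPFC 1, 2+4 and 3. NAc 1 was low and mPFC 1 high, so the groups overlapped, and the difference was 2.66 ± 0.64 (6.33-fold, adjusted p 0.0116) or 3.03 without the 2 samples. Tac1, the precursor of substance P, read 4.46, 6.07, 6.96 and 6.57 in the NAc and 3.83, 2.82 and 2.62 in the mPFC. These did not overlap and differed by 2.92 ± 0.57 (adjusted p 0.00432). Pdyn, the dynorphin precursor, was higher by 2.49 ± 0.54 (adjusted p 0.00725), Slc35d3, of the nucleotide-sugar transporter family, by 4.32 ± 0.95 (adjusted p 0.00764) and the LIM factor Isl1 by 5.07 ± 0.61 (adjusted p 0.000584).

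Among D2-neuron genes, Penk, the enkephalin precursor, read 6.23, 7.47, 7.72 and 7.64 in the NAc and 5.64, 2.97 and 3.40 in the mPFC. The groups did not overlap, mPFC 1 was the highest cortical sample, and the difference of 3.26 ± 0.63 (9.60-fold, adjusted p 0.00435) was 3.95 without the 2 samples. Adora2a, an adenosine receptor of these neurons, read 0.84, 2.90, 3.59 and 3.94 in the NAc and 1.43, −1.96 and −1.71 in the mPFC. NAc 1 lay below mPFC 1, and the difference was 3.57 ± 0.96 (11.8-fold, adjusted p 0.0184) or 4.28 (19.4-fold) without the 2 samples. Without mPFC 3 or without mPFC 2 and 4 it missed the threshold (adjusted p 0.0710 and 0.0717). Drd2, the D2 receptor, read −2.78, −1.28, −0.82 and −0.77 against −2.21, −3.55 and −2.85, a difference of 1.45 ± 0.51 that did not pass (adjusted p 0.0519). It passed without NAc 1 (1.91, adjusted p 0.00422) and without mPFC 1 (1.78, adjusted p 0.0399), and did not pass without both doubted samples (1.57, adjusted p 0.0656). Drd2 also passed with quantile normalization (1.66), the array median (1.75), array weights (1.80) and the 4 DBA groups in 1 model (1.45). With mPFC 2 and 4 as 2 samples (1.62) it passed as well, both without and with a term for the replicate number. In the remaining settings it did not. Gpr6, an orphan receptor of D2 neurons, was higher by 1.41 ± 0.45 (adjusted p 0.0359) and did not pass without the 2 samples (adjusted p 0.0521), nor without mPFC 3, mPFC 2 and 4 or any of NAc 2, 3 and 4.

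**Figure D3:**
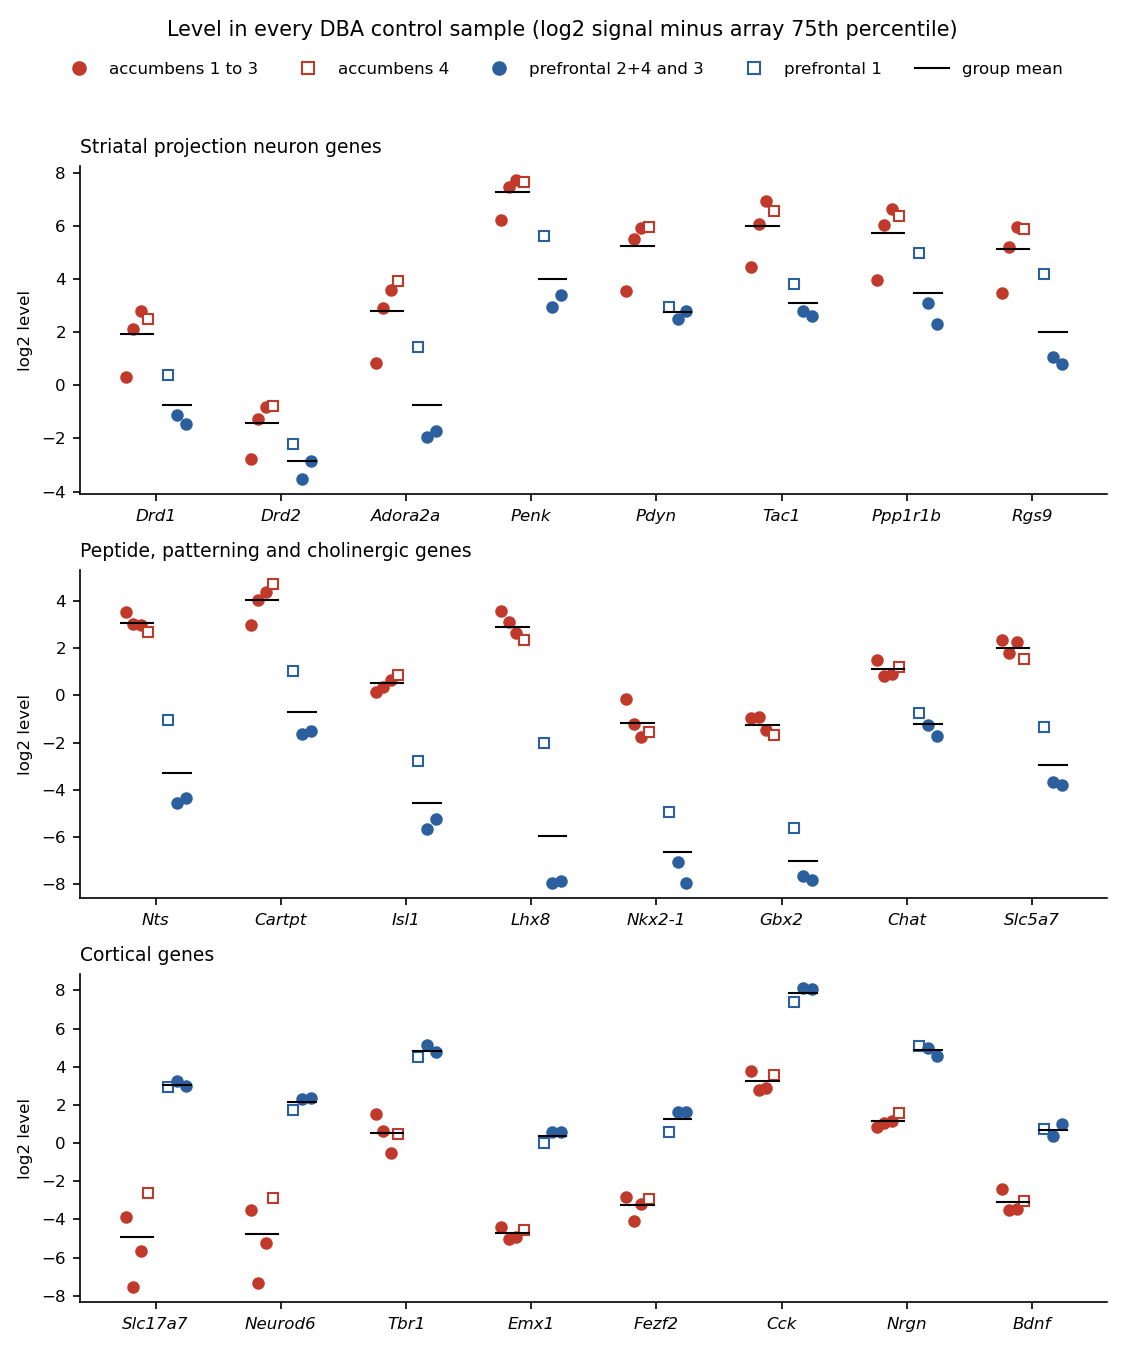
Level of 24 genes (log2 signal minus array 75th percentile) in each NAc sample (red) and mPFC sample (blue, arrays 2 and 4 averaged), with open squares for NAc 4 and mPFC 1 and black bars for group means. In the top and middle panels mPFC 1 is the highest mPFC sample for every gene, NAc 1 is the lowest NAc sample for every gene of the top panel, and the groups do not overlap for the cortical genes of the bottom panel.

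Of 36 genes of striatal signal transduction, 13 were higher and 7 lower in the NAc, with a median difference of 0.72. Ppp1r1b (DARPP-32, a phosphatase inhibitor regulated by dopamine) read 3.98, 6.04, 6.63 and 6.37 in the NAc and 4.97, 3.11 and 2.33 in the mPFC. NAc 1 lay below mPFC 1, and the difference of 2.28 ± 0.76 (4.87-fold) had an adjusted p of 0.0421. The G-protein regulator Rgs9 was higher by 3.11 ± 0.89 (adjusted p 0.0238) and the phosphodiesterase Pde10a by 2.21 ± 0.70 (adjusted p 0.0352). Without the 2 doubted samples the differences of Ppp1r1b, Rgs9 and Pde10a were 2.83, 3.95 and 2.67 and all passed, whereas without mPFC 3 alone (1.71, 2.50 and 1.92) none of the 3 did. Without mPFC 2 and 4, and without NAc 2, 3 or 4, these 3 genes also missed the threshold. Ppp1r1b missed it as well with quantile normalization (2.26) and with another background correction (2.16). With all 8 groups of the study in 1 model, Ppp1r1b (2.28) and Pde10a (2.21) missed it. Gng7 and Gnal, the G-protein subunits that couple striatal receptors to adenylyl cyclase, were higher by 1.77 ± 0.53 and 1.13 ± 0.29. Gng7 missed the threshold without each of mPFC 3 (1.64), mPFC 2 and 4 (1.40) and NAc 2, 3 or 4, and Gnal without mPFC 2 and 4 (0.99). Adcy5, the main striatal adenylyl cyclase, differed by 1.05 ± 0.42 and did not pass (adjusted p 0.0787), but did without NAc 1 (1.45). The 7 lower members included Rgs4 (−1.77 ± 0.31), the inositol kinase Itpka (−1.48 ± 0.41), the calcium-release channel Itpr1 (−1.34 ± 0.36), the activin subunit Inhba (−1.46 ± 0.34), the scaffold Homer1 (−0.95 ± 0.28) and the cannabinoid receptor Cnr1 (−1.02 ± 0.23). Itpka, Itpr1 and Homer1 missed the threshold without mPFC 3 (−1.38, −1.36 and −0.96) and without mPFC 2 and 4 (−1.46, −1.29 and −0.94), and Homer1 also without mPFC 1 or NAc 2.

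Transcription factors of the striatum and ventral forebrain were mostly higher in the NAc. Of 35, 23 were called higher and 2 lower, with a median of 1.24. Six3, a homeobox factor of striatal development, read 0.94, 1.77, 1.63 and 1.80 in the NAc and −1.16, −4.74 and −3.47 in the mPFC, a difference of 4.66 ± 0.72 (adjusted p 0.00150). Foxp2 was higher by 2.75 ± 0.49, Zfp503 by 3.62 ± 0.61, Pbx3 by 3.00 ± 0.43, Meis1 by 2.27 ± 0.36, and the homeobox factors Dlx5 and Dlx6 by 2.05 ± 0.18 and 2.14 ± 0.18. The retinoid receptors Rarb (2.31 ± 0.60) and Rxrg (1.98 ± 0.47) were also higher, and Rarb missed the threshold without mPFC 3 (2.11) and without mPFC 2 and 4 (2.03). Foxp1 did not pass (0.22 ± 0.41), but did without NAc 1 (0.65, adjusted p 0.00678). Factors of the pallidum and basal forebrain were also called higher. Lhx8, which specifies cholinergic neurons, read 3.58, 3.13, 2.63 and 2.36 in the NAc and −2.03, −7.95 and −7.86 in the mPFC, where it was well above background only in mPFC 1. Nkx2-1 and Gbx2 were likewise well above background on 1 of the 4 mPFC arrays, mPFC 1. The size of these 3 differences rests on background readings in the other mPFC samples and is not given, and every NAc value lay above the measured value of mPFC 1. The 2 factors that were lower were Nr4a1 (−1.74 ± 0.44) and Hivep2 (−1.04 ± 0.19).

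Cortical transcription factors were lower in the NAc, 25 of 39 called and 0 higher, with a median of −1.36. Tbr1 read 1.53, 0.65, −0.51 and 0.47 in the NAc and 4.51, 5.14 and 4.79 in the mPFC, a difference of −4.28 ± 0.41 (19.4-fold lower, adjusted p 0.000277). Emx1, which patterns the dorsal forebrain, read −4.41, −5.01, −4.92 and −4.56 against 0.01, 0.58 and 0.56, a difference of −5.11 ± 0.22 (adjusted p 6.35e-05). The neurogenic factors Neurod2 (−5.24 ± 0.39), Neurod6 (−6.87 ± 0.94) and Neurod1 (−5.00 ± 0.48), the deep-layer factor Fezf2 (−4.52 ± 0.37), and Bhlhe22 (−4.67 ± 0.30) all fell. Neurod6 was well above background on 3 and Neurod1 on 1 of the 4 NAc arrays. The size of the Neurod1 difference therefore rests largely, and that of Neurod6 in part, on background readings. Smaller differences were measured for Mef2c (−2.39 ± 0.24), the upper-layer factor Cux2 (−1.20 ± 0.19) and the layer 4 factor Rorb (−0.86 ± 0.16). For each of the cortical factors named in this paragraph the NAc and mPFC values did not overlap.

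Of 47 markers of cortical layers and excitatory neurons, 26 were lower and 5 higher in the NAc, with a median of −1.29. Slc17a7, the vesicular glutamate transporter of cortical neurons, read −3.90, −7.57, −5.67 and −2.59 in the NAc, well above background on 2 of the 4 arrays, and 2.93, 3.24 and 2.97 in the mPFC. The NAc samples were far apart, yet the groups did not overlap, and the difference was −7.98 ± 1.00 (adjusted p 0.000668) or −8.81 without the 2 samples, sizes that rest in part on background readings. The zinc transporter Slc30a3 (−6.06 ± 0.38), Dkkl1 (−4.16 ± 0.24), the calmodulin-binding Nrgn (−3.72 ± 0.20), the syntaxin Stx1a (−3.40 ± 0.16) and the kinase Camk2a (−1.80 ± 0.39) were lower. Slc17a6, the transporter of subcortical glutamate neurons, differed by 0.99 ± 0.44 and did not pass (adjusted p 0.107), with 1.79 in NAc 1 and −0.28 in NAc 4, and passed without the 2 samples (1.42, adjusted p 0.0400). The 5 higher members were Foxp2, Wfs1, Ngb, Efnb3 and Trib2.

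**Figure D4:**
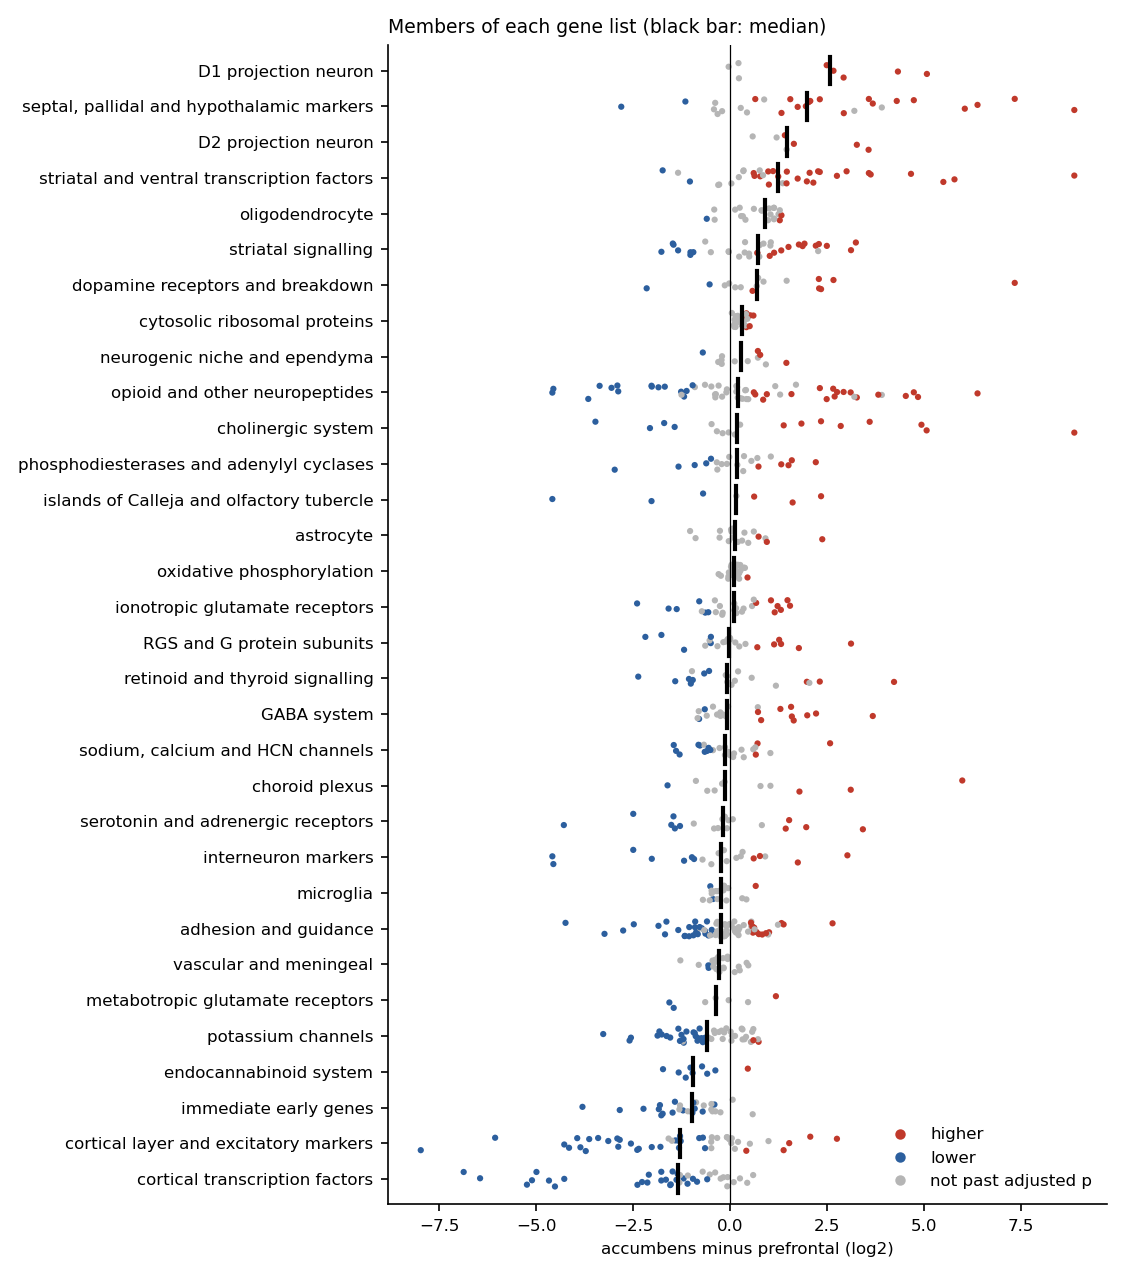
Difference between regions (NAc minus mPFC, log2) for every tested member of 32 gene lists, 1 point per gene, red for higher, blue for lower and grey for not past adjusted p 0.05, with black bars for list medians. Lists are ordered by median, from −1.36 for cortical transcription factors to 2.57 for D1 projection neurons.

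For dopamine receptors and handling, a list that also holds Ppp1r1b and the calcitonin receptor Calcr, 6 of 16 genes were higher and 2 lower, with a median of 0.70. Drd3 read −3.56, −2.20, −1.70 and −1.56 in the NAc and −3.77, −5.07 and −4.95 in the mPFC, a difference of 2.34 ± 0.52 (adjusted p 0.00782). Drd4 read −4.65, −4.33, −3.77 and −4.89 against −2.78, −2.11 and −1.87, so the groups stood apart in the other direction (−2.15 ± 0.31, adjusted p 0.00122). Ddc, which decarboxylates L-DOPA, was higher by 2.29 ± 0.27 (adjusted p 0.000511). Th, the rate-limiting enzyme of dopamine synthesis (0.27 ± 0.21), and the transporter Slc6a3 (0.86 ± 0.42) did not pass. Without mPFC 1 both did (0.55 and 1.35), and without both doubted samples also (0.55 and 1.26).

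Ionotropic glutamate receptor genes divided between the regions, 7 of 27 higher and 6 lower in the NAc, with a median of 0.11. Grin1, the obligatory NMDA subunit, read 1.94 to 2.12 in the 4 NAc samples and 2.80 to 2.90 in the 3 mPFC samples (−0.80 ± 0.10, adjusted p 0.000592). Gria3 (−1.59 ± 0.12) and the AMPA receptor auxiliaries Cnih3 (−2.40 ± 0.19) and Cacng3 (−1.38 ± 0.25) were lower. The kainate subunit Grik2 (1.54 ± 0.21), the NMDA subunits Grin2d (1.15 ± 0.27) and Grin3b (1.30 ± 0.33) and the auxiliary Cacng5 (1.48 ± 0.35) were higher, and Grin3b missed the threshold without mPFC 3 (1.23) and without mPFC 2 and 4 (1.21). Among 7 metabotropic receptors 1 was higher and 2 were lower, Grm2 (−1.57 ± 0.18) and Grm8 (−1.46 ± 0.17).

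In the GABA system 9 of 22 genes were higher and 2 lower in the NAc, with a median of −0.08. The genes for making and packaging GABA were higher. Gad2 read 5.26, 5.42, 5.40 and 5.50 in the NAc and 3.57, 2.91 and 3.07 in the mPFC, a difference of 2.21 ± 0.16 (adjusted p 0.000147). Slc32a1, the vesicular GABA transporter, read 7.20, 7.20, 7.07 and 7.25 against 5.50, 5.01 and 5.07 (1.99 ± 0.14, adjusted p 0.000131), and Gad1 was higher by 1.59 ± 0.21. The receptor subunits differed in direction, with Gabrg1 higher (1.64 ± 0.15) and Gabra5 (−0.80 ± 0.15) and Gabra3 (−0.66 ± 0.17) lower. Gabra3 missed the threshold without mPFC 3 (−0.60) and without mPFC 2 and 4 (−0.55). Gabrq was not well above background on any mPFC array and was at least 9.45-fold higher in the NAc. This bound sets the mean of the bright group against the lowest well-measured signal of each array of the dim group. It was computed with the main background subtraction.

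The cholinergic list had 8 of 18 genes higher and 4 lower, with a median of 0.19. Chat, which makes acetylcholine, read 1.52, 0.82, 0.91 and 1.21 in the NAc and −0.73, −1.24 and −1.70 in the mPFC (2.34 ± 0.25, adjusted p 0.000400). The vesicular transporter Slc18a3 (3.59 ± 0.35), the choline transporter Slc5a7 (4.93 ± 0.56), Ache (1.38 ± 0.16) and the neurotrophin receptor Ngfr (2.85 ± 0.59) were also higher. Muscarinic receptors differed in direction, Chrm2 higher (1.83 ± 0.36) and Chrm1 (−1.43 ± 0.34) and Chrm3 (−2.07 ± 0.14) lower. The nicotinic subunit Chrna5 was not well above background on any NAc array and was at least 3.61-fold higher in the mPFC, though its fitted difference of −3.48 shrank to −0.32 and did not pass with the other background correction.

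Neuropeptides and their receptors differed in both directions, 18 of 59 higher and 15 lower, with a median of 0.19. Nts read 3.55, 3.04, 2.98 and 2.70 in the NAc and −1.04, −4.55 and −4.33 in the mPFC. The groups were apart, mPFC 1 was the highest cortical sample, and the difference was 6.37 ± 0.76 (82.9-fold, adjusted p 0.000558) or 7.63 without the 2 samples. Cartpt, the precursor of the CART peptide, read 2.99, 4.04, 4.39 and 4.71 against 1.05, −1.63 and −1.52 (4.73 ± 0.67, adjusted p 0.00108). The tachykinin receptors Tacr1 (3.104 ± 0.34) and Tacr3 (4.84 ± 0.51), the kappa opioid receptor Oprk1 (2.75 ± 0.49) and the neuropeptide Y receptor Npy2r (2.65 ± 0.32) were higher. The brightest probe of the mu receptor Oprm1 did not pass (0.31 ± 0.17, adjusted p 0.183) except with the array median (0.61) and array weights (0.43), while its other probe was called higher (2.63). In the other direction, Cck read 3.80, 2.79, 2.87 and 3.57 in the NAc and 7.38, 8.10 and 8.05 in the mPFC, a difference of −4.58 ± 0.29 (24.0-fold lower, adjusted p 0.000123). Its receptor Cckbr (−3.06 ± 0.14) and the peptides Vip (−4.56 ± 0.45), Grp (−3.66 ± 0.68), Adcyap1 (−3.37 ± 0.49) and Npy (−1.19 ± 0.32) were lower, and Npy missed the threshold without mPFC 2 and 4 (−1.15). The somatostatin receptor Sstr3 was lower (−2.91 ± 0.21), while the peptide Sst did not pass (−0.30 ± 0.18, adjusted p 0.223).

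Of 20 interneuron markers, 4 were higher and 7 lower, with a median of −0.23. Pvalb did not pass (−0.71 ± 0.47, adjusted p 0.259), with 1.50 in NAc 4 and 3.16 to 3.64 in the other NAc samples. Of 20 serotonin and adrenergic receptors, 4 were higher and 6 lower, with a median of −0.19. Htr4 (3.42 ± 0.46), Htr2c (1.96 ± 0.14), Htr7 (1.43 ± 0.31) and Htr1b (1.52 ± 0.37) were higher. Adra1d (−4.29 ± 0.37), the ion-channel receptor Htr3a (−2.50 ± 0.23), Adrb1 (−1.52 ± 0.14) and Htr2a (−1.29 ± 0.40) were lower. Htr2a missed the threshold without each of mPFC 3 (−1.24), mPFC 2 and 4 (−0.99), and NAc 1, 2 or 4, and Htr1b without mPFC 3 (1.31). In the endocannabinoid system 8 of 9 genes were lower and 1 higher, with a median of −0.97. The synthetic enzymes Dagla (−1.15 ± 0.12) and Napepld (−1.33 ± 0.17), the degrading enzymes Faah (−1.73 ± 0.16) and Mgll (−0.97 ± 0.21) and the receptor Cnr1 were lower, and Cnr2 was higher (0.45 ± 0.11, not past the threshold without mPFC 3, 0.39). With the array median 5 of the 9 were lower.

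Phosphodiesterases and adenylyl cyclases divided, 5 of 21 higher and 5 lower, with a median of 0.18. Adcy1, a calcium-stimulated cyclase, read 1.66, 1.38, 1.60 and 1.23 in the NAc and 4.69, 4.39 and 4.25 in the mPFC (−2.98 ± 0.15, adjusted p 6.82e-05). Pde1b (1.31 ± 0.44, adjusted p 0.0447) and Pde7b (1.50 ± 0.49, adjusted p 0.0393) were higher, but each missed the threshold without mPFC 3 (1.17 and 1.38), mPFC 2 and 4 (1.11 and 1.36) or any of NAc 2, 3 and 4. Of 48 potassium channel genes 23 were lower and 2 higher, with a median of −0.60, and with the array median 17 were lower and 8 higher. Kcns1 (−3.27 ± 0.41), Kcnh7 (−2.60 ± 0.28), Kcnv1 (−2.56 ± 0.40) and Kcnj3, a G-protein-gated channel (−1.87 ± 0.20), were lower. Of 26 sodium, calcium and HCN channel genes 3 were higher and 9 lower, with a median of −0.14. The calcium channel subunits Cacna2d2 (2.57 ± 0.24) and Cacna2d1 (−1.46 ± 0.18) differed in opposite directions.

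Of 77 genes of cell adhesion and axon guidance, 12 were higher and 27 lower, with a median of −0.25. The Nogo receptor family was lower. Rtn4r read −1.43, −2.26, −2.61 and −1.91 in the NAc and 1.86, 2.44 and 2.28 in the mPFC (−4.25 ± 0.28, adjusted p 0.000123). Its relatives Rtn4rl1 (−1.34 ± 0.20) and Rtn4rl2 (−0.95 ± 0.21) and the partner Lingo1 (−2.76 ± 0.20) were lower as well. Robo3 (−3.24 ± 0.29) and Ephb6 (−2.49 ± 0.21) were lower, and the guidance cue Ntn1 was higher (2.64 ± 0.25). Among 20 retinoid and thyroid genes, 3 were higher and 7 lower, with a median of −0.08 (0.22 with the array median). Crabp1, which binds retinoic acid, was higher by 4.22 ± 0.48, and Dio2, which activates thyroid hormone, was lower (−2.37 ± 0.29).

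Of 27 immediate early and activity-regulated genes, 15 were lower and 0 higher in the NAc, with a median of −0.97. Without the 2 samples 13 were lower and 1 higher, and with the array median 9 were lower and 1 higher. Bdnf, a neurotrophin, read −2.39, −3.50, −3.48 and −3.03 in the NAc and 0.72, 0.39 and 1.01 in the mPFC (−3.81 ± 0.29, adjusted p 0.000148). Arc read 0.97, 1.57, 2.93 and 2.60 against 5.32, 3.80 and 3.65, with mPFC 1 the highest (−2.24 ± 0.55, adjusted p 0.0126). Nptx2 (−2.85 ± 0.18) and Egr1 (−1.49 ± 0.36) were lower, and Fos did not pass (−0.88 ± 0.49, adjusted p 0.185).

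Of 28 genes listed as septal, pallidal and hypothalamic markers, 17 were higher and 2 lower in the NAc, with a median of 1.99. Their mean level was −0.37 to 0.78 in the NAc and −2.56 to −1.67 in the mPFC samples, where mPFC 1 had the highest value. The list shares members with other lists, among them Lhx8, Gbx1 and Zic1 with the ventral transcription factors and Nts, Cartpt, Oxt and Avp with the neuropeptides. Calcr, the calcitonin receptor, read 0.60, 1.16, 0.44 and 0.53 in the NAc and −4.86, −7.31 and −7.79 in the mPFC, where it was well above background only in mPFC 1, so that the size of its difference is not given. Magel2, an imprinted gene of the hypothalamus, was higher by 2.93 ± 0.31. The hypothalamic hormones Oxt and Avp were spread widely within the NAc. Oxt read 6.50, −0.42, 3.06 and −4.003 and Avp 3.93, −3.04, 0.23 and −6.61 in NAc 1 to 4, with NAc 1 highest and NAc 4 lowest for both, and neither passed (3.91 ± 2.10 and 3.20 ± 2.10). Without NAc 4 both did (5.67 and 4.94). The part of neighbouring tissue or of cell makeup in the differences above was not tested.

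Of 22 oligodendrocyte genes 2 were higher and 1 lower, with a median of 0.90, but without the 2 samples 16 were higher and 1 lower, with a median of 1.51. The lower gene with all samples was Mbp (−0.61), which missed the threshold with the array median (−0.31). The 2 other probes of Mbp had the opposite sign (0.19 and 0.79) and were not called. The mean level of this list was 2.81 in mPFC 1, 1.36 in mPFC 3 and 2.40 to 2.83 in the NAc. Of 18 astrocyte genes 3 were higher and 0 lower (6 and 0 without the 2 samples), among them Agt, angiotensinogen (2.37 ± 0.39). Of 20 microglial genes 1 was higher and 2 lower, and of 22 vascular and meningeal genes 0 were higher and 2 lower. Of 11 choroid plexus genes 3 were higher and 1 lower, the higher ones being Clic6 (5.98 ± 0.91), Otx2 (3.11 ± 0.55) and Kl (1.78 ± 0.39), while Kcnj13 did not pass, the brightest probe of Folr1 did not pass (−0.88 ± 0.33) though its other probe was called lower (−2.59), and Ttr was not tested.

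The 12 largest differences among named genes well above background on all 8 arrays, with groups that did not overlap, were, towards the NAc, Nts, Dlk1 (6.05), Clic6, the antisense transcript Mhrt (5.32), the orphan receptor Gpr101 (5.31), Arhgap36 (5.16), Isl1, Slc5a7, Cartpt, Six3, Upb1 (4.65) and Igsf1 (4.52). Dlk1, an imprinted transmembrane protein of the Notch ligand family, read 3.88, 4.07, 3.19 and 3.48 in the NAc and −0.78, −3.45 and −2.95 in the mPFC. Gpr101 read 2.20, 2.72, 2.15 and 2.30 against −2.04, −3.75 and −3.11. In both genes mPFC 1 was again the highest cortical sample. Towards the mPFC they were Hkdc1 (−6.46), Prdm8 (−5.80), Neurod2, Emx1, Serinc2 (−4.93), Arhgap15 (−4.86), Wnt9a (−4.83), Ly6g6e (−4.74), Ccn3 (−4.72), Bhlhe22, Clec18a (−4.65) and the neurite-growth factor Nrn1 (−4.59). Hkdc1, a hexokinase-like gene, read −3.04, −5.56, −4.29 and −2.26 in the NAc and 1.91, 3.08 and 3.04 in the mPFC. Arhgap15, a Rac GTPase-activating protein, read −3.30, −3.62, −3.48 and −3.03 against 1.08, 1.75 and 1.68.

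Some genes were well above background on all 4 arrays of one region and on 0 of the other. For these the fold is a bound within the main background subtraction, and another background correction can give a smaller fold. Towards the mPFC, Prss16 was at least 13.2-fold higher, Lct (lactase) at least 21.2-fold, Cst13 at least 10.6-fold, Atp6v1g3 at least 4.64-fold, the peptide Ucn at least 4.21-fold and Gucy2g at least 3.99-fold. Towards the NAc, Gabrq stood with Krt25 (at least 9.14-fold), Qrfprl (at least 7.02-fold), the sodium channel Scn9a (at least 6.41-fold) and the orexin receptor Hcrtr2 (at least 3.96-fold). Gucy2g and Ucn did not pass with the other background correction (−0.37 and −0.48).

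Without mPFC 1 and NAc 4, 48 of the 51 called genes followed across settings that had a difference of at least 3 and were well above background on all 8 arrays had a difference farther from 0. The difference of Nts was 7.63 in place of 6.37, that of Slc35d3 5.49 in place of 4.32 and that of Isl1 5.83 in place of 5.07. Tac1 differed by 3.11, Pdyn by 2.34, Cartpt by 5.38, Six3 by 5.56, Gad2 by 2.37 and Chat by 2.56, and Tbr1 by −4.41, Emx1 by −5.35 and Cck by −4.92, and each of these passed. Among striatal lists, 5 D1 genes were higher and 0 lower, 3 D2 genes were higher and 0 lower, 13 signalling genes were higher and 7 lower, and 22 striatal and ventral transcription factors were higher and 2 lower. Of the cortical transcription factors 1 was higher and 25 lower, and of the layer and excitatory markers 5 were higher and 25 lower. The counts of higher and lower genes were 8 and 2 for dopamine, 7 and 7 for ionotropic glutamate receptors, 9 and 4 for GABA, 9 and 3 for the cholinergic list and 19 and 17 for neuropeptides. They were 5 and 6 for interneuron markers, 4 and 6 for serotonin and adrenergic receptors, 1 and 8 for endocannabinoids, 4 and 5 for phosphodiesterases and cyclases and 3 and 22 for potassium channels. They were 3 and 6 for sodium, calcium and HCN channels, 14 and 31 for adhesion, 4 and 6 for retinoid and thyroid genes and 18 and 3 for septal, pallidal and hypothalamic markers. Metabotropic glutamate receptors, microglial genes and vascular and meningeal genes each had 1 higher and 2 lower, and choroid plexus genes 4 and 2. Of the 190 called genes followed across settings, Gpr6, Pde7b, Kcnn3, Tek and Tmem119 did not pass without the 2.

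**Figure D5:**
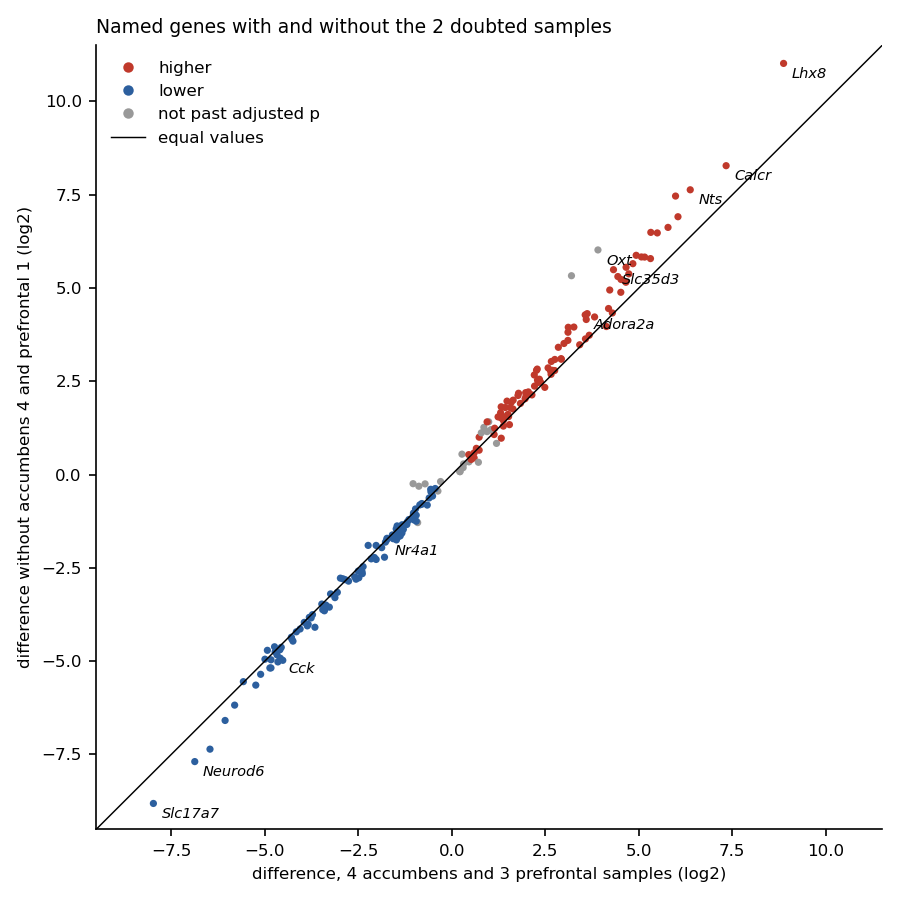
Difference between regions (NAc minus mPFC, log2) of the 214 genes followed across settings, with Xist and Glo1 left out. The horizontal axis holds all samples and the vertical axis leaves out NAc 4 and mPFC 1. Points are red for higher and blue for lower at adjusted p under 0.05 with all samples. Many points at the upper end lie above the line of equal values, as for Nts (6.37 and 7.63), and some differences, such as those of Lhx8, Calcr and Slc17a7, rest in part on background readings.

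The comparison of the same regions in DBA mice after RCF shares no sample with this one but lies on the same 2 slides. It rests on 4 NAc and 3 mPFC samples, as mPFC arrays 1 and 3 of that group were averaged. There, 9148 of the 11945 features (76.6%) were called in the same direction, and of the 350 with a difference of 3 or more 335 were. In C57BL/6J controls, on other slides, the 4 NAc arrays formed 2 nearly identical pairs and were averaged to 2 samples. With 3 mPFC samples, these gave the same sign for 290 of these 350 features and called 0 of them, with smaller values. Slc17a7 differed by −3.21 there, Adora2a by 0.61 and Penk by −0.09. In C57BL/6J mice after RCF, 4 NAc and 4 mPFC samples gave the same sign for 316 of the 350, and 0 were called. Several C57BL/6J samples are said to carry markers of the other region, and the part of this in the smaller values was not tested. The difference between the strains was not tested.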

How the data were processed

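RNA of 8 samples was hybridised to 1-colour Agilent arrays. The deposited spot intensity values were background-subtracted and spatially detrended by Agilent Feature Extraction 10.7.3.1, per the file headers. The authors' deposited table holds log2 values of 30067 probes with a common 75th percentile of 11.4303. Arrays were given their sample by that table's column titles. Each value is log2 processed signal minus the array's 75th percentile over non-control probes, with outlier spots left out. Probes marked as well above background in 3 or more arrays of either region were tested, and the brightest probe stood for a gene. mPFC 2 and 4 were averaged, and limma 3.58.1 in R 4.3.3 fitted the 2 groups (trended variance, Benjamini-Hochberg adjustment, threshold 0.05). Nothing says that same-numbered samples share an animal, and correlations of their deviations were −0.11, 0.16, 0.14 and −0.22, so numbers were not paired.

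Named genes were the 12 largest called differences in each direction among genes well above background on all 8 arrays with groups that do not overlap, up to 6 per direction of genes above background in 1 region, and up to 6 members per list and direction, with fixed striatal, cortical, strain and sex genes. Members and lists were chosen with earlier results of these data known. The number of arrays limits precision. Alternatives changed the scaling, background correction (normexp with offset 50, on the median spot signal in place of the planned mean), filter, probes, samples, array assignment, variance model and threshold. Some genes covered by the rule are not reported here.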

Additional observations from a re-analysis of the deposited data

Results flagged for a closer look

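In the 4 NAc samples, 214 genes and 35 list means were examined for a sample whose gap to the nearest other exceeded Dixon's critical value, which chance exceeds in about 1 of 20 groups, and 9 did. NAc 1 stood apart in 7 of these. Its level of Adcyap1, a peptide, was −0.19 against −2.24 to −1.995 in the others, and that of the cannabinoid receptor Cnr1 was 4.20 against 3.29 to 3.35. It was low for Grin1 (1.94 against 2.10 to 2.12), Npy (0.99 against 2.27 to 2.38) and Penk (6.23 against 7.47 to 7.72). The mean level of the dopamine list was −0.77 in NAc 1 against −0.26 to −0.19, and that of the metabotropic glutamate receptors 0.93 against 1.23 to 1.28. NAc 4 stood apart for Glo1 (3.13 against 4.44 to 4.63), the strain marker described in the report and for Rtn4rl2 (−2.63 against −3.24 to −3.18).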

How the results depend on the processing

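Of the 214 genes followed, 190 were called. Under those of the 18 alternatives run for genes in which a gene had a value, all 190 kept their direction and 151 their call. The alternative with the probes of the authors' table held values for 166 of the 214. Calls lost with the array median included those of Gabra3, Homer1, Htr2a and Mbp. Those lost with normexp included Gpr6, Homer1 and Ppp1r1b, and those lost with quantile normalization included Ppp1r1b and Pde1b. With the scanner files assigned as listed, 0 features were called (0 higher and 0 lower by limma) and 252 had an unadjusted p under 0.05. Requiring a difference of at least 1 left 6100 (1135 higher, 4965 lower). The count higher in the NAc was 8041 with the array median, 5851 with array weights and 5171 with every probe tested. The count lower was 5004 with normexp and 4902 with the probes of the authors' table. Leaving out 1 sample gave 8792 to 11890 calls, 2204 to 3514 higher and 6588 to 8376 lower, with 2204 higher without mPFC 3 and 2232 without NAc 2. List medians changed sign with the array median for the GABA system (0.21), interneuron markers (0.063), serotonin and adrenergic receptors (0.11), sodium, calcium and HCN channels (0.16), adhesion and guidance (0.047), microglia (0.057), retinoid and thyroid signalling (0.22), choroid plexus (0.15) and RGS and G protein subunits (0.26). Without mPFC 1 and NAc 4 those of the choroid plexus (0.28) and the islands of Calleja (−0.15) did, and with quantile normalization those of retinoid and thyroid signalling (0.027) and RGS and G protein subunits (0.0073). Without 1 sample, the median of the ionotropic glutamate receptors ranged from −0.018 to 0.19 and that of the GABA system from −0.11 to 0.014. Smaller medians also changed sign without 1 sample, for the cholinergic list (−0.092 without mPFC 3), retinoid and thyroid signalling (0.0029 without NAc 2), RGS and G protein subunits (0.0024 without NAc 4) and, without mPFC 1, oxidative phosphorylation (−0.0092), the choroid plexus (0.26) and the islands of Calleja (−0.12). The islands of Calleja median was also below 0 with the authors' probes (−0.24) and array weights (−0.11), and that of retinoid and thyroid signalling was 0.022 with mPFC 2 and 4 as 2 samples. The replicate block, with mPFC 2 and 4 as 2 samples, gave 13325 calls against 14151 without the block, and the numbers do not pair the samples. The causes were not tested. Signal near background gives only a bound, which depends on the background correction.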

Other observations

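Of 35 cytosolic ribosomal protein genes all 35 had a higher value in the NAc, from 0.042 to 0.60, and 7 were called higher and 0 lower in the NAc, with a median difference of 0.30, and without mPFC 1 and NAc 4, 16 were higher. With the array median 29 were higher. The mean level of this list was 6.183 to 6.449 on the NAc arrays and 5.776 to 6.186 on the mPFC arrays, so the regions overlapped. NAc 4 was the lowest NAc array and mPFC 1 the lowest mPFC array. Of 30 genes of oxidative phosphorylation 1 was higher and 0 lower (3 and 2 without the 2 samples), with a median of 0.11. Of all features, 11.7% were called higher, and 14.6% without the 2 samples. With the array median 8041 of the 29469 features were higher.

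Of 6 Xlr genes, an X-linked family, 0 were higher and 1 lower in the NAc, and 1 and 1 without mPFC 1 and NAc 4. Xlr5a differed by −3.12 and was well above background on 1 of the 4 NAc arrays, so this size rests largely on background readings. Xlr4a (0.79) and Xlr4b (0.94) did not pass.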
